A study of Mus musculus with 6 samples.

Results

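RNA of ERVL retroviral elements other than MERVL was compared between mouse embryonic fibroblasts lacking β-actin (KO) and wild-type fibroblasts (WT). The elements were taken as all rows of the deposited repeat counts whose family is exactly ERVL, leaving out names that start with MERVL, MT2_Mm, MT2A, MT2B or MT2C. This rule gave 102 of 1336 rows: 96 passed a filter on low counts and were tested, and 6 did not. The KO group was 3 libraries from cells with both copies of Actb deleted (Actb-/-), and the WT group was 3 libraries from cells with intact Actb. All 6 came from BALB/c embryos aged 10.5 days and from total RNA depleted of ribosomal RNA, and the series calls the 3 libraries of each genotype biological replicates. Nothing in the labels says whether the libraries came from separate embryos or cultures, so p-values measure the spread between these libraries. Repeat and structural RNA rows make up the files, so Actb and fibroblast marker genes were not analysed here.

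ERVL elements are endogenous retroviruses whose name refers to the leucine transfer RNA that primes their reverse transcription. A complete copy has an internal region with gag and pol genes between a pair of long terminal repeats (LTRs), which carry the promoter and the polyadenylation signal. Recombination between the LTRs of a copy removes the internal region and leaves a solitary LTR, the most common remnant of old insertions. In the mouse the young, mobile ERVL group is MERVL with its MT2_Mm LTRs, and the rows described here are mostly remnants of earlier insertions that no longer move. The rule used family and name and not age. Names starting with MLT2, LTR16 or LTR33 belong to elements shared among placental mammals, whereas RMER and RLTR names were given to repeats of rodents. These rodent names covered 7 of the 102 rows but 44.6% of the summed level, so "ancient" describes most of the rows but leaves out a large part of the signal.

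Each row is a sum over all genomic copies of a subfamily, without chromosome positions or lengths. Row levels depend on how many copies a subfamily has and how long they are, so the levels of different rows are given side by side and not ranked as activity. Levels are CPM computed on the effective library size that edgeR's TMM method gives (normalized CPM). Total counts ran from 7708630 to 19288620 per library, and ribosomal RNA took 52.9% to 84.8% of them in KO libraries and 32.4% to 84.1% in WT libraries. Counts on the 102 rows ranged from 18202 to 44872 in KO libraries and from 16515 to 54156 in WT libraries. The median tested row had 130 counts per library.

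The summed level of the 102 rows was nearly the same in both genotypes. It was 2230, 2229 and 2267 normalized CPM in KO replicates 1, 2 and 3, against 2247, 2148 and 2198 in WT replicates 1, 2 and 3. The means were 2242 ± 22.0 in KO and 2198 ± 49.7 in WT (SD, n = 3 each), a log2 ratio of 0.029, and the genotypes overlapped. In this bulk RNA, fewer cells with an RNA and less of it per cell cannot be told apart. As a share of counts outside structural RNA, the rows took 0.705%, 1.27% and 1.02% in KO replicates 1, 2 and 3, against 1.33%, 0.669% and 0.964% in WT replicates 1, 2 and 3. The exact (Clopper-Pearson) 95% interval of the lowest share, in WT replicate 2, was 0.659% to 0.679% and covers counting error only. This share was lowest in the 2 libraries with the most ribosomal RNA, KO replicate 1 and WT replicate 2, where the normalized levels were 2230 and 2148.

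The sums of related groups differed more between libraries, although their median row differed less. The highest library stood at 1.06 times the lowest for the 102 rows, at 1.49 times for the 8 MERVL and MT2 rows, and at 2.25 times for the 109 rows of the ERVL-MaLR family, the non-autonomous relatives of ERVL. The median coefficient of variation of a row was 10.5% in KO and 12.3% in WT for the tested ERVL rows outside MERVL, 6.06% and 4.68% for MERVL and MT2, and 4.92% and 5.90% for MaLR. MT2B2 held most of the MERVL and MT2 sum, and MT2_Mm was at 745, 93.4 and 450 normalized CPM in KO replicates 1, 2 and 3, against 58.96, 959 and 466 in WT replicates 1, 2 and 3. The MaLR sum was highest, at 37623 and 36365 normalized CPM, in KO replicate 1 and WT replicate 2. Rows with many reads weigh most in this sum: MTB averaged 118390 counts per library, against a median of 838 per tested MaLR row. How much of the spread came from single rows was not tested. With the rRNA level of the library as an added term in edgeR, that term passed at an adjusted p below 0.05 in 0 of 96 tested ERVL rows outside MERVL and in 20 of all 1193 tested rows (1.68%). At an unadjusted p below 0.05 the counts were 0 of 96 and 84 of 1193 (7.04%).

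**Figure D1:**
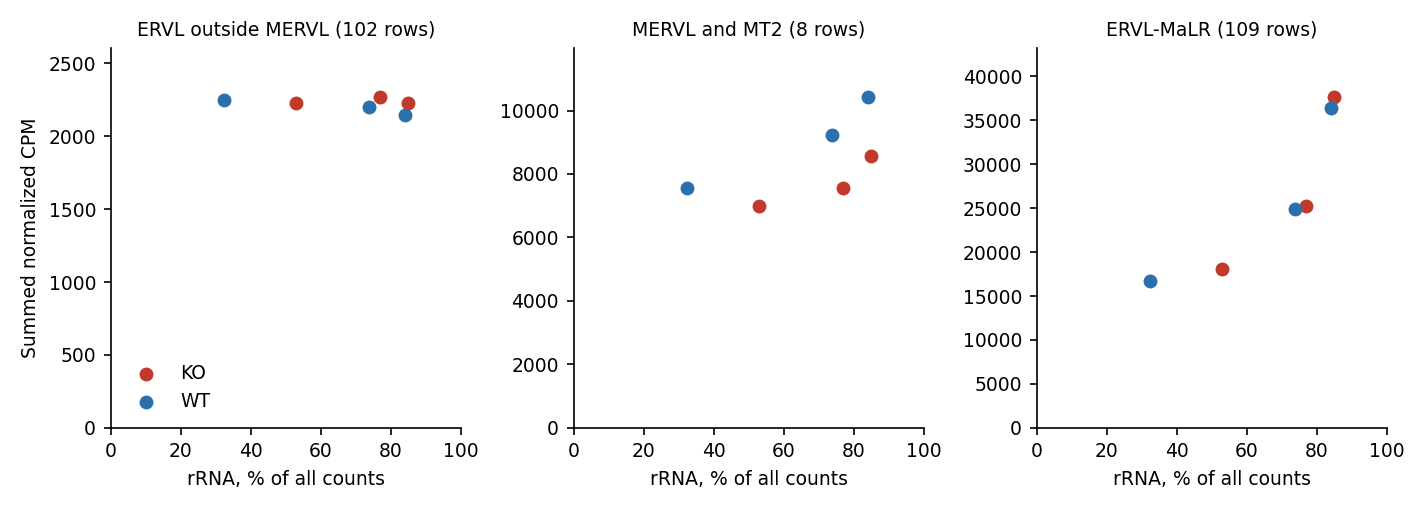
Summed normalized CPM per library (vertical axis, each panel on its own scale from 0) against the percent of all counts that were rRNA, for ERVL rows outside MERVL, MERVL with MT2, and ERVL-MaLR; red points are KO libraries and blue points WT libraries. The 102 ERVL rows stayed between 2148 and 2267 normalized CPM, while the MaLR sum ran from 16745 to 37623. These levels are relative to the bulk of repeat rows, with TMM factors of 0.423 to 3.13. As a share of counts outside structural RNA, the 102 rows ran from 0.669% to 1.33%.

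KO was compared with WT row by row to ask which repeats differ in RNA level when β-actin is absent. Of the 96 tested ERVL rows outside MERVL, 1 rose in KO, LTR80A, and none fell, at a Benjamini-Hochberg adjusted p below 0.05 over all 1193 tested rows in edgeR's quasi-likelihood test. Over all tested rows 5.78% were called, 2.18% higher and 3.60% lower in KO, and 1 of 96 is 1.04%. At an unadjusted p below 0.05 there were 9 rows higher and 8 lower, 17 of 96 or 17.7%, against 20.9% of all tested rows. By DESeq2 and by limma-voom also no row fell, while LTR80A and LTR82A rose by DESeq2 and LTR80A by limma-voom. In 24 of the 96 rows (25%) all KO libraries lay on one side of all WT libraries, 15 with KO higher and 9 with KO lower, against 25.8% of all tested rows, 12.4% higher and 13.4% lower.

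Differences were small for most rows. The median log2 fold change was 0.044, against 0.012 for all tested rows, and the quartiles were -0.097 and 0.21. Fold changes lay above 0 in 63.5% of the ERVL rows and in 52.3% of all tested rows. For 59 of the 96 rows (61.5%, against 65.4% of all tested rows) the 95% interval lay within a 1.5-fold change in either direction. The 95% intervals of fold changes use a normal approximation and are narrower than the edgeR test implies. Fewer rows may therefore be held within a 1.5-fold change than these shares state. In the 69 rows that averaged 50 counts or more, log2 fold changes ran from -0.38 in LTR53 to 0.55 in LTR82A, and none reached 1.5-fold. The 5 rows past 1.5-fold (5.21%, against 7.38% of all tested rows) all averaged fewer than 50 counts: LTR80A, MER76-int, MER68C and LTR53-int above 0, at 1.79, 1.53, 0.67 and 0.59, and LTR69 below, at -0.60. The 95% intervals of MER68C, LTR53-int and LTR69 included 0 (edgeR adjusted p = 0.317, 0.321 and 0.453). All fold changes are relative to the bulk of repeat rows. With library totals as the scale, rRNA included, the median log2 fold change over the whole table moved by -0.37 and edgeR made 0 calls, with 0 of the 96 rows at an unadjusted p below 0.05. Every name group described here had a median and a summed level below 0 on that total-count scale, with overlapping libraries, whereas DESeq2's size factors kept the direction of each.

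**Figure D2:**
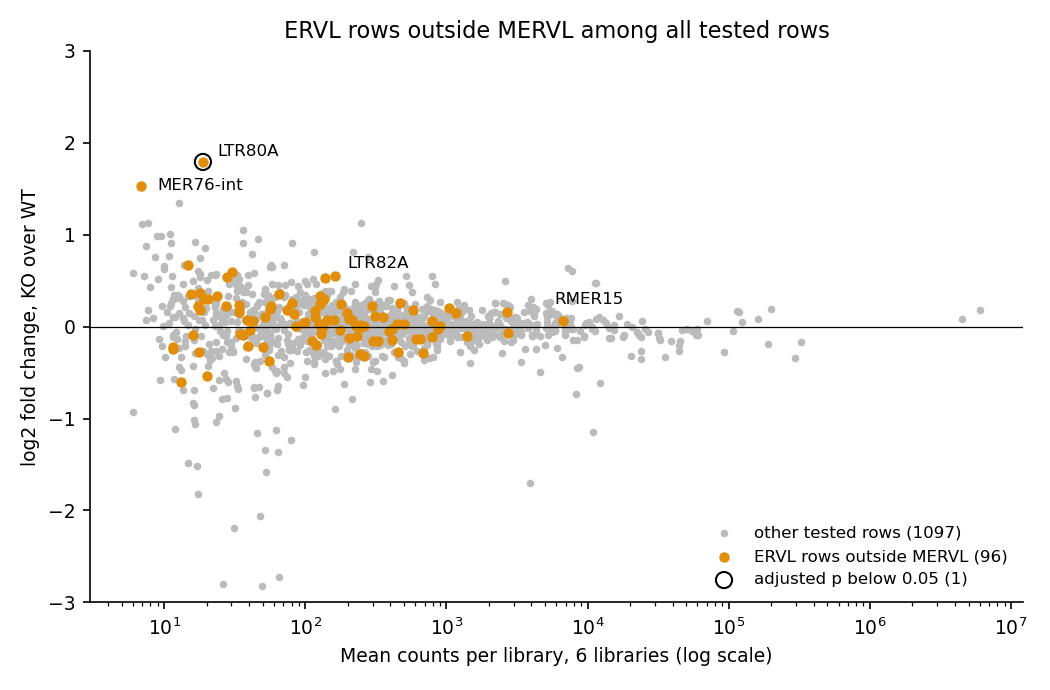
log2 fold change, KO over WT, of each tested row against its mean counts per library (log scale); orange points are the 96 ERVL rows outside MERVL, grey points the other 1097 tested rows, and the black ring marks the 1 ERVL row with an adjusted p below 0.05. LTR80A stands highest of all rows at 1.79 with few counts, and RMER15, the row with the most counts among the orange points, lies at 0.064.

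LTR80A, an LTR with few reads, had the highest fold change of all 1193 tested rows. It had 19, 39 and 28 counts in KO replicates 1, 2 and 3, against 16, 2 and 9 counts in WT replicates 1, 2 and 3. In normalized CPM these were 2.33, 1.94 and 1.89 in KO, against 0.664, 0.260 and 0.626 in WT. Every KO library stood above every WT library, by more than the spread within either genotype. The log2 fold change was 1.79 ± 0.31 (SE; adjusted p = 0.0139 by edgeR). Summed over libraries, 86 counts in KO against 27 in WT gave a ratio of 3.41 per effective library size, with an exact 95% interval of 2.19 to 5.47 that covers counting error only. The row met the count minimum in 3 KO libraries and 1 WT library, so it entered the test through the KO group; with no count minimum it still passed (log2 fold change 1.79, edgeR adjusted p = 0.0211). It did not pass in edgeR without KO replicate 2 (1.83), KO replicate 3 (1.84) or WT replicate 3 (1.87), nor without both WT replicate 1 and KO replicate 2 (2.06) or on the total-count scale (1.34). LTR80B, named as a variant of the same LTR, at 1.55 ± 0.574 in KO and 1.21 ± 0.364 in WT, overlapped between genotypes (edgeR adjusted p = 0.680).

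LTRs with names from LTR60 to LTR99, the name group of LTR80A, had mostly positive fold changes. Over the 15 tested rows of this name group, 12 (80%) lay above 0, against 52.3% of all tested rows. The median log2 fold change was 0.22 (-0.22 on the total-count scale), against 0.012 for all rows. Of the 15, 1 rose, LTR80A, and none fell. An unadjusted p below 0.05 was found in 3 (20%), against 20.9% of all tested rows. LTR80A, LTR75B, LTR86A1 and LTR86C met the count minimum in all KO but not all WT libraries, and LTR86A2 the other way round. With no count minimum the median of all 17 rows was 0.18. The summed level of all 17 rows with such names was 69.2, 67.9 and 73.8 normalized CPM in KO, against 61.8, 56.2 and 61.5 in WT, with every KO library above every WT library (log2 ratio 0.23; -0.18 on the total-count scale). LTR82A had 11.3, 12.5 and 14.5 normalized CPM in KO replicates 1, 2 and 3, against 9.58, 7.28 and 8.77 in WT replicates 1, 2 and 3. Its libraries did not overlap, and its log2 fold change was 0.55 ± 0.14 (SE; adjusted p = 0.0571 by edgeR). It passed with DESeq2 (adjusted p = 0.0224), with the rRNA term and without KO replicate 1. LTR82B, the variant of LTR82A, was at 5.96 ± 0.712 in KO and 5.05 ± 0.599 in WT and overlapped. LTR86A2 lay on the other side, at 1.12 ± 0.118 in KO and 1.63 ± 0.166 in WT, with no overlap (edgeR adjusted p = 0.264).

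**Figure D3:**
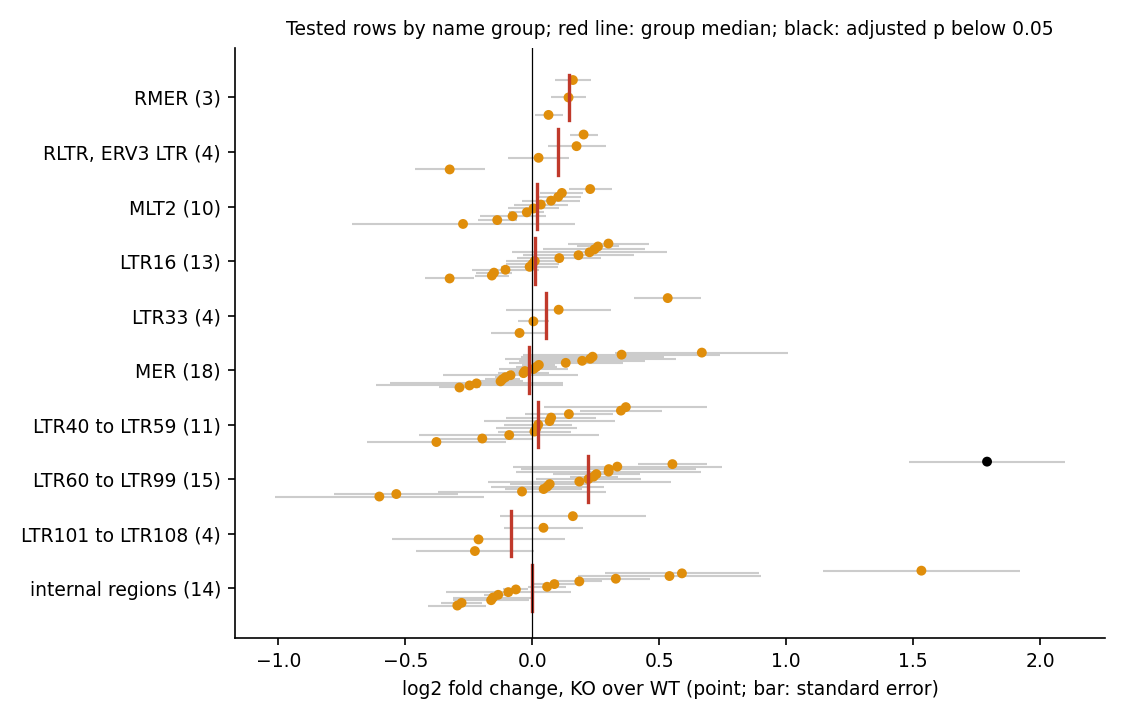
log2 fold change, KO over WT (horizontal axis), of the 96 tested ERVL rows outside MERVL by name group, with standard errors as grey bars and the number of tested rows in brackets; red lines are group medians and the black point is the row with an adjusted p below 0.05. Most points lie between -0.4 and 0.4, the LTR60 to LTR99 median is 0.22 and the median of the internal regions is near 0.

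The 3 RMER LTR rows, rodent elements that held 31.9% of the summed level, had small positive fold changes and none passed in edgeR, with 0 at an unadjusted p below 0.05. Their summed level was 731 ± 8.81 in KO and 683 ± 19.5 normalized CPM in WT, a log2 ratio of 0.098 (-0.31 on the total-count scale). RMER15 alone held 20.3% of the summed level. It was at 466, 454 and 460.5 normalized CPM in KO, against 439, 442 and 440.2 in WT, so the genotypes did not overlap although they differed little. Its log2 fold change was 0.064 ± 0.055 (SE), with a 95% interval of -0.044 to 0.17 (adjusted p = 0.570 by edgeR). RMER10A was at 190, 189 and 188 in KO, against 186, 159 and 161 in WT, where WT replicate 1 stood close to the KO libraries. RMER10A and RMER10B had log2 fold changes of 0.16 and 0.14 (edgeR adjusted p = 0.243 and 0.283). On the total-count scale RMER10A, RMER10B and RMER15 lay below 0, at -0.29, -0.31 and -0.31.

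The RLTR28 rows pointed in opposite directions. RLTR28, another rodent LTR, was at 77.8, 73.1 and 76.6 normalized CPM in KO, against 67.2, 69.2 and 61.4 in WT. The genotypes did not overlap, and the log2 fold change was 0.20 ± 0.06 (SE; adjusted p = 0.0769 by edgeR; -0.20 on the total-count scale). RLTR28B was at 14.6, 17.4 and 14.6 in KO, against 16.8, 23.9 and 19.98 in WT. KO replicate 2 and WT replicate 1 overlapped, and the log2 fold change was -0.33 ± 0.14 (SE; adjusted p = 0.228 by edgeR). The remaining rodent LTR, RLTR35B_MM, had a log2 fold change of 0.17 and did not overlap between genotypes (edgeR adjusted p = 0.438).

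LTR16 rows, the LTRs of HERV16-type elements, lay on both sides of 0. Of 13 rows none passed in edgeR, and 3 (23.1%) had an unadjusted p below 0.05, against 20.9% of all tested rows. The median log2 fold change was 0.0097 and the range ran from -0.33 to 0.30. LTR16B was at 13.0, 11.9 and 10.9 normalized CPM in KO, against 15.5, 13.8 and 14.7 in WT. All KO libraries were lower than all WT libraries, with a log2 fold change of -0.33 ± 0.10 (SE; adjusted p = 0.0975 by edgeR). LTR16C pointed the other way, at 29.8, 34.6 and 36.3 in KO, against 30.0, 26.8 and 27.4 in WT. KO replicate 1 was within the WT range, and the log2 fold change was 0.26 ± 0.08 (SE; adjusted p = 0.118 by edgeR; it passed without KO replicate 1, at 0.32, and was -0.13 on the total-count scale). LTR16A2 stood at 0.30 ± 0.16 (SE; adjusted p = 0.341 by edgeR; -0.13 on the total-count scale).

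Of the 4 LTR33 rows, LTR33B differed most. It was at 9.68, 12.3 and 10.6 normalized CPM in KO, against 7.01, 7.80 and 8.28 in WT, with no overlap. The log2 fold change was 0.53 ± 0.13 (SE; adjusted p = 0.0590 by edgeR), and it passed with the rRNA term and without KO replicate 1. LTR33, which has the most reads of the 4, was at 59.8 ± 2.60 in KO and 59.5 ± 4.33 in WT, a log2 fold change of 0.0043 with a 95% interval of -0.12 to 0.13. LTR33C lay at 0.10 (adjusted p = 0.834 by edgeR; -0.20 on the total-count scale).

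MLT2 rows, LTRs of HERVL-type elements, differed little. None of 10 passed in edgeR and 1 (10%) had an unadjusted p below 0.05, against 20.9% of all tested rows. The median log2 fold change was 0.019, with summed levels of 205 ± 8.40 in KO and 203 ± 5.81 normalized CPM in WT. MLT2F was at 21.2, 22.1 and 21.7 in KO, against 16.8, 19.5 and 19.9 in WT. The genotypes did not overlap, and the log2 fold change was 0.23 ± 0.08 (SE; adjusted p = 0.167 by edgeR; -0.06 on the total-count scale). MLT2B3 lay at -0.14 ± 0.08 (SE; adjusted p = 0.361 by edgeR).

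MER-named LTRs had a lower summed level in KO, although none of the 18 rows passed in edgeR. An unadjusted p below 0.05 was found in 2 (11.1%), against 20.9% of all tested rows. The sum was 350, 333 and 337 normalized CPM in KO, against 356, 358 and 364 in WT, with every KO library below every WT library (log2 ratio -0.079; overlapping on the total-count scale). MER74A was at 45.8, 38.8 and 40.5 in KO, against 50.3, 45.9 and 54.7 in WT. KO replicate 1 stood just below WT replicate 2, and the log2 fold change was -0.29 ± 0.08 (SE; adjusted p = 0.0807 by edgeR; it passed without KO replicate 1, at -0.35). MER21C was at 91.5, 89.0 and 91.9 in KO, against 97.2, 100.01 and 96.0 in WT, a log2 fold change of -0.11 ± 0.039 (SE; adjusted p = 0.167 by edgeR). MER21B and MER68 had log2 fold changes of -0.029 and -0.12 and overlapped between genotypes. The median of the 18 rows, most of them with fewer reads than these, was -0.012.

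LTRs with names from LTR40 to LTR59 and from LTR101 to LTR108 gave no call in edgeR among 11 and 4 tested rows, and 0 had an unadjusted p below 0.05. Their medians were 0.023 and -0.084. LTR41C was at 4.66, 5.26 and 4.79 normalized CPM in KO, against 3.82, 4.29 and 3.69 in WT, without overlap (log2 fold change 0.35, standard error 0.16, edgeR adjusted p = 0.275). LTR53 had the lowest fold change among rows with at least 50 counts, -0.38 with a standard error of 0.27, and overlapped. LTR102_Mam and LTR108a_Mam, whose suffix marks elements described from mammals at large, stood at -0.23 and -0.21 with standard errors of 0.23 and 0.34. The 95% intervals of both include a 1.5-fold decrease, and LTR108a_Mam was at 4.81 normalized CPM in WT replicate 2, against 2.70 and 1.81 in WT replicates 1 and 3.

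**Figure D4:**
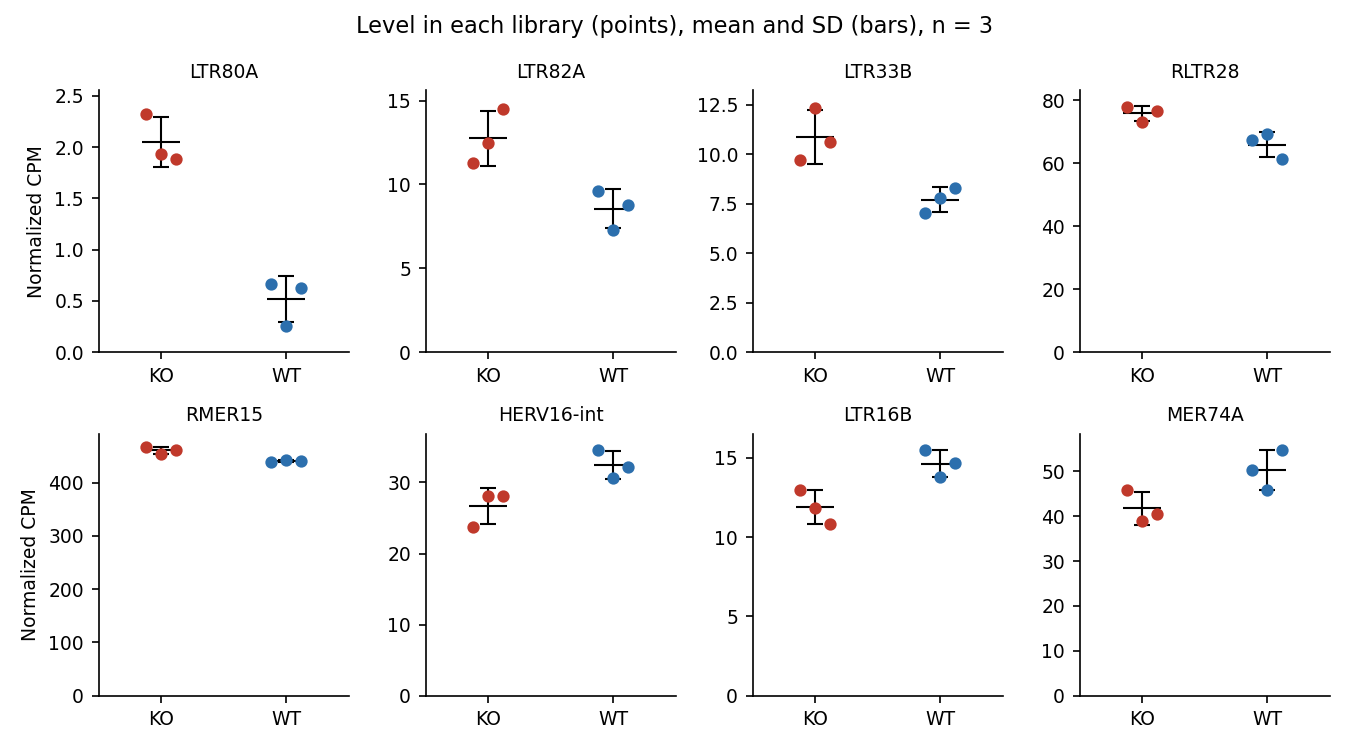
Normalized CPM of 8 ERVL rows in each KO library (red, left) and WT library (blue, right), with the mean and SD as bars (n = 3 each) and every vertical axis starting at 0. KO libraries lie above WT libraries for LTR80A, LTR82A, LTR33B, RLTR28 and RMER15 and below them for HERV16-int, LTR16B and MER74A; of these 8 rows only LTR80A passed the edgeR test.

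The 14 internal rows, which hold what is left of the gag and pol genes, lay on both sides of 0. None passed in edgeR. An unadjusted p below 0.05 was found in 5 of the 14 (35.7%), 2 higher and 3 lower in KO, against 20.9% of all tested rows. Their summed level was 417, 415 and 419 normalized CPM in KO, against 435, 423 and 428 in WT, so every KO library stood slightly lower (log2 ratio -0.039; overlapping on the total-count scale). The median log2 fold change was -0.0031. RMER15-int, with 8.35% of the summed level of all 102 rows, was at 183, 179.5 and 181 normalized CPM in KO, against 186, 194 and 189 in WT, without overlap (log2 fold change -0.065, standard error 0.049, edgeR adjusted p = 0.505). HERV16-int was at 23.8, 28.1 and 28.1 in KO, against 34.5, 30.6 and 32.2 in WT, without overlap (log2 fold change -0.28, standard error 0.08, edgeR adjusted p = 0.0883). MER21-int was at 15.9, 15.2 and 13.0 in KO, against 16.9, 16.4 and 20.4 in WT, without overlap (-0.30, standard error 0.11, edgeR adjusted p = 0.188). HERVL74-int lay on the other side, at 9.68, 9.09 and 9.98 in KO, against 8.59, 7.02 and 6.75 in WT, with every KO library above every WT library (0.33, standard error 0.13, edgeR adjusted p = 0.209; -0.15 on the total-count scale). MER76-int had the second highest fold change of the 96 rows but only 6, 11 and 13 counts in KO, against 6, 1 and 4 counts in WT. Its log2 fold change was 1.53 ± 0.39 (SE; adjusted p = 0.0619 by edgeR), and summed counts of 30 and 11 gave a ratio of 2.92 per effective library size with an exact 95% interval of 1.42 to 6.46 that covers counting error only and not the spread between libraries. ERVL-E-int, the internal row with the most reads after RMER15-int, was at 53.9 ± 5.41 in KO and 51.8 ± 2.41 in WT.

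Internal regions could be set against their own LTRs by name in 11 pairs, which cover 34 LTR rows. The count of the internal row over that of its LTR rows in the same library does not depend on library scaling. The KO and WT ratios did not overlap in 6 of the 11 pairs, 3 with KO higher and 3 with KO lower, against 24.1% of all pairs of tested LTR-class rows. That share is for ratios of 2 single rows, whereas 7 of the 11 pairs divide by a sum of 2 to 13 LTR rows, so the shares are not like for like. RMER15-int had 0.392, 0.395 and 0.393 counts per RMER15 count in KO, against 0.424, 0.438 and 0.429 in WT. HERV16-int had 0.137, 0.151 and 0.148 per LTR16 count in KO, against 0.182, 0.182 and 0.174 in WT. HERVL74-int had 0.167, 0.176 and 0.185 per MER74 count in KO, against 0.136, 0.123 and 0.0983 in WT. The ratios of MER76-int and LTR53-int were also higher in KO in every library and that of HERVL40-int lower. Both MER76-int and LTR53-int had few reads. LTR53-int had 25, 46 and 33 counts in KO replicates 1, 2 and 3, against 52, 9 and 17 in WT. MER76-int had 6, 11 and 13 counts in KO, against 6, 1 and 4 in WT. Each of the 6 pairs gave p = 0.1 in an exact two-sided permutation test, the smallest p that 3 against 3 libraries allow. After Benjamini-Hochberg adjustment over the 11 pairs it was 0.183. Ratios without overlap always give this smallest p, so the test adds nothing to the count of 6. In 7 of the 11 pairs the internal row and the median of its LTRs lay on opposite sides of 0. No such share was computed for other pairs of rows, so this count has nothing to be set against. Unlike the ratios, the side of 0 depends on library scaling. On the total-count scale RMER15-int (-0.42) and RMER15 (-0.31) were both below 0.

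**Figure D5:**
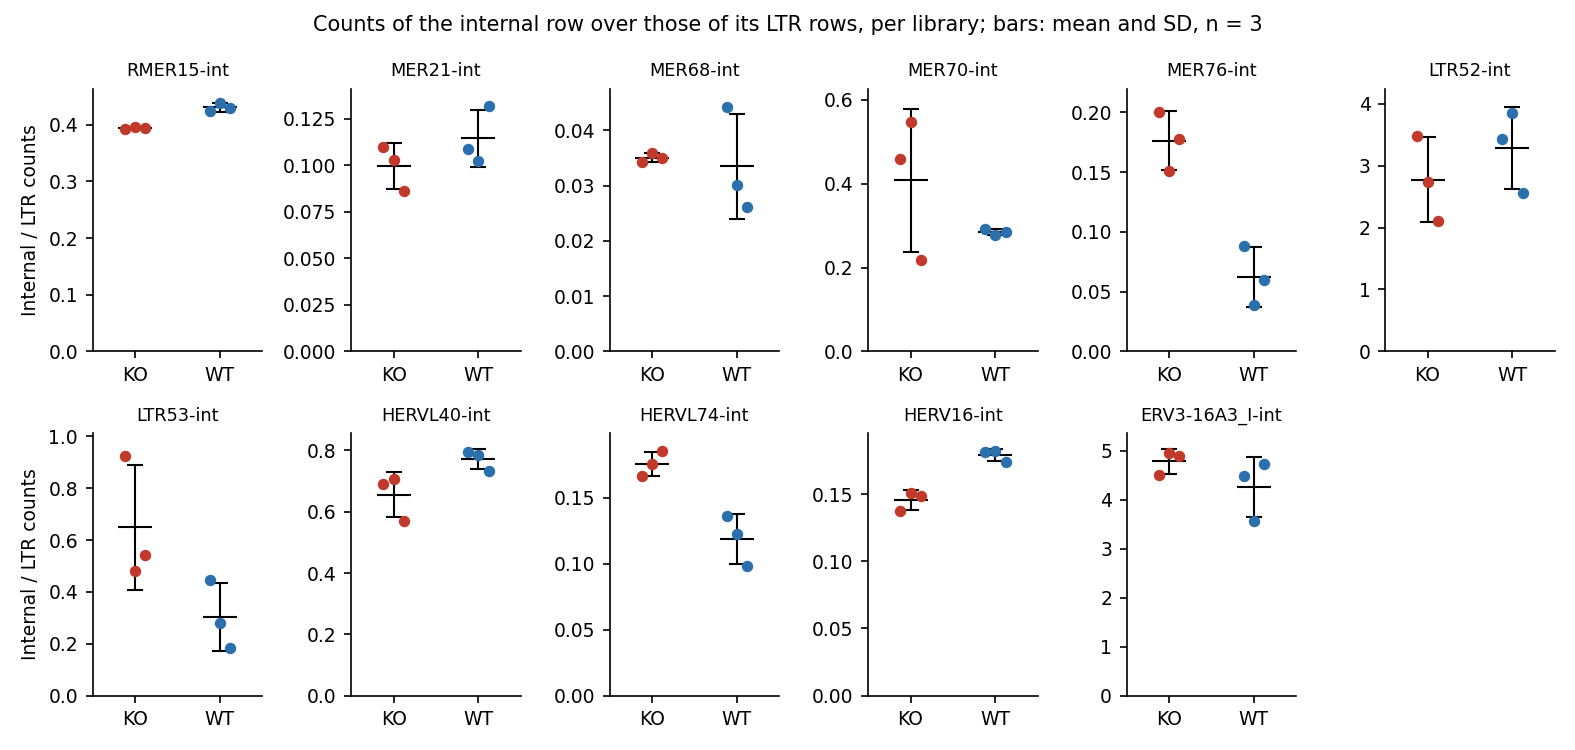
Counts of each internal row divided by the summed counts of its LTR rows, in each KO library (red, left) and WT library (blue, right), with mean and SD as bars (n = 3 each) and axes from 0. Ratios lie apart for RMER15-int (0.392 to 0.395 in KO, 0.424 to 0.438 in WT), HERV16-int and HERVL40-int, lower in KO, and for HERVL74-int, MER76-int and LTR53-int, higher in KO.

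The 8 MERVL and MT2 rows gave no call by edgeR, DESeq2 or limma-voom and none at an unadjusted p below 0.05 in edgeR. With the rRNA term in edgeR, however, 2 of the 8 were called lower in KO. The median log2 fold change of the 8 rows was -0.049, beside 0.044 for the ERVL rows outside MERVL. Of 103 tested MaLR rows none rose and 5 fell in edgeR, where 3.60% of all tested rows fell, and the median was near 0. DESeq2 gave 3 falls and limma-voom 2, and edgeR gave 2 without structural RNA rows and 0 on the total-count scale, with the replicate block, without both WT replicate 1 and KO replicate 2, or without either KO replicate 2 or KO replicate 3 alone. Without WT replicate 1, 2 or 3 there were 2, 1 and 1 falls, and a mean of at least 50 counts gave 3 falls and 1 rise. MERVL, MT2 and MaLR rows had more reads, with a median of 4220 counts per tested row for the 8 MERVL and MT2 rows and 838 for MaLR, against 130 for the ERVL rows outside MERVL. Their median standard errors were 0.068, 0.069 and 0.15. No test between these groups was made.

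The 6 rows that were not tested were LTR86B1, LTR86B2 and the LTR108 variants b, c, d and e, with 0 to 21 counts per library and means of 0.833 to 10 counts. Of the 96 tested rows, 78 met the count minimum in every library. Another 8 met it in all KO libraries but not in all WT libraries, and 3 the other way round (LTR53B, LTR86A2 and MLT2E). Fitted without a count minimum, the median log2 fold change of all 102 rows was 0.039.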

How the data were processed

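For each library the authors deposited unnormalized estimated counts of 1336 repeat and structural RNA rows, called fractional in the file names although each value was whole. FastQC 0.11.5, Trimmomatic and Bowtie2 and the builds mm10 and GRCm38 are named per the submitters' processing notes. The sources used here do not give the counting tool, the repeat annotation, or how strand and reads matching several rows were treated. If similar rows share reads they are not independent, and reads from copies inside genes cannot be told apart from transcripts that start in a repeat.

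The whole table was analysed in R 4.3.3 with edgeR 4.0.16: filterByExpr with its count minimum of 10, scaled to library size (1193 rows kept, 143 removed), TMM, the quasi-likelihood test and Benjamini-Hochberg adjustment at 0.05 over all tested rows. Standard errors came from the test statistic, and 95% intervals from them by a normal approximation. With 3 libraries per group these intervals are too narrow. That of LTR41C, 0.032 to 0.67, left out 0 at an unadjusted edgeR p of 0.062. DESeq2 1.42.0 and limma 3.58.1 (voom) were alternatives. The scripts were tested on simulated data. Rows were grouped by name. Named rows were every called row, the 10 with the highest level, the 6 largest changes in each direction with at least 50 counts on average, the 2 smallest p values of each name group, and rows without overlap among the 12 smallest p values. This rule named 29 rows. Others (LTR53-int, LTR80B, LTR82B, LTR86A2, LTR69, MER68C, RLTR35B_MM, HERVL40-int) were chosen after their values were seen. The rows and lists were chosen with earlier results of these data known, and the internal-LTR pairs were set by name after the files were seen. Between libraries of the same genotype, chi-square over degrees of freedom on these rows was 1.70 to 2.43 for each pair. These values exceed counting error alone but cannot show whether the libraries came from separate embryos or cultures.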

Additional observations from a re-analysis of the deposited data

How the results depend on the processing

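The count of ERVL rows outside MERVL that rose in KO was 1 in edgeR, 1 without structural RNA rows, with no count minimum and with limma-voom, 2 with DESeq2 or its size factors, 3 with the rRNA term, and 0 with total-count scaling, with a mean of at least 50 counts (which removes LTR80A) and without both WT replicate 1 and KO replicate 2. Leaving out 1 library gave 0 to 4 rises and 0 to 1 falls; the highest counts, LTR16C, LTR33B, LTR80A and LTR82A higher and MER74A lower, came without KO replicate 1, and the call of LTR80A was lost without KO replicate 2, KO replicate 3 or WT replicate 3. In the other alternatives no row fell. The median log2 fold change was -0.33 with total counts and 0.10 without WT replicate 1 and KO replicate 2, and 0.0053 to 0.062 when 1 library was left out. The summed level, at a log2 ratio of 0.029, was -0.36 and 0.060 in the same 2 alternatives, and 0.0094 to 0.045 when 1 library was left out. With total counts, 0 rows had genotypes that did not overlap. Of the alternative values of the 29 named rows, 424 kept direction and side of the threshold, 8 passed it anew, 6 no longer passed and 21 changed sign.

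Values that changed sign on the total-count scale were ERVL-E-int (-0.34), HERVL74-int (-0.15), LTR16A2 (-0.13), LTR16C (-0.13), LTR33 (-0.39), LTR33C (-0.20), MLT2F (-0.060), RLTR28 (-0.20), RMER10A (-0.29), RMER10B (-0.31) and RMER15 (-0.31), where the median of all rows shifted by -0.37. LTR33 was also below 0 with no count minimum (-0.00052) and limma-voom (-0.00038). LTR33C was -0.00096 without WT replicate 1 and KO replicate 2, where ERVL-E-int was 0.13. When 1 library was left out, LTR33 ran from -0.050 to 0.047, LTR33C from -0.026 to 0.30, ERVL-E-int from -0.028 to 0.11, MER21B from -0.058 to 0.011 and LTR108a_Mam from -0.46 to 0.094. The causes were not tested. Low counts limit the precision of the rarer rows: the 27 tested rows under 50 counts on average had a median standard error of 0.34, against 0.11 for the 69 others.

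With the replicate number as a block, 0 of the 96 rows were called, and LTR80A had an edgeR adjusted p of 0.0567 (log2 fold change 1.90). Over all rows this fit called 24, against 69 without the block. Deviations from the group means correlated at -0.55, -0.50 and 0.039 between KO and WT libraries numbered 1, 2 and 3, not every library correlated best with its own number, and the labels tie no number to a litter or batch. The pairing was therefore not used.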
